A study of Mus musculus with 6 samples.

Results

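The vascular miRNAs mmu-miR-143-3p, mmu-miR-145a-5p, mmu-miR-145a-3p, mmu-miR-126a-3p and mmu-miR-126a-5p, written below without the mouse prefix, were followed in small RNA sequencing of RAW 264.7 cells, a mouse macrophage-like line. They were chosen by name, and all 5 were found among the 1109 mature miRNA entries of the deposited table. The study holds 3 libraries of male RAW 264.7 cells labelled with 48 h of ox-LDL, oxidized low-density lipoprotein (the oxLDL group), and 3 labelled as having had no treatment (control). No dose is given, all 6 libraries come from 1 established line, and no gene was altered in either group. The control columns carry 0 h in their names, so time in culture and treatment cannot be told apart. Macrophages ingest ox-LDL through scavenger receptors as they become foam cells of the atherosclerotic plaque.

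Mir143 and Mir145a lie close together and are processed from a shared primary transcript that is abundant in vascular and visceral smooth muscle, where serum response factor and myocardin drive it. Their products favour the contractile state of smooth muscle cells. Mir126a is carried in an intron of Egfl7, a gene of endothelial cells, and its 3p arm represses Spred1 and Pik3r2, which restrain growth factor signalling, and the adhesion molecule VCAM-1. Both loci are best known from the vessel wall and less so from macrophages.

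The Mir126a hairpin (GRCm38, chr2:26591357-26591429, plus strand) lay within transcripts of Egfl7, in introns except for 1 retained-intron transcript whose exon covers it. The longer transcript Gm20532 runs through the same place. The sequences of the miR-126 locus are shown because 1 of its arms carries the change described next, and because the table lists miRNAs from both of its strands. They are from RefSeq (GRCm38.p6), 5′ to 3′, with the seed (bases 2 to 8) in capitals for mature miRNAs and the miR-126a-3p stretch in capitals for the hairpin.
miR-126a-3p: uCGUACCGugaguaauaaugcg
miR-126b-5p: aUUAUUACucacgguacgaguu
Mir126a: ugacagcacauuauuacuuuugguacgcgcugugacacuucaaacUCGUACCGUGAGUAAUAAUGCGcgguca
No other mature miRNA among the 1679 of that table shares the seed of miR-126a-3p. The miR-126b-5p sequence is read from the minus strand and covers 19 of the positions of miR-126a-3p, so the strand of a read decides between them. It had 0, 2 and 1 reads in oxLDL libraries 1 to 3 and 0, 3 and 4 in control libraries 1 to 3. The maximum of 4 reads is for that arm only, because miR-126b-3p, the other arm from the opposite strand, was not listed.

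Library totals ran from 5502826 to 7373188 miRNA reads. Levels are given as CPM, which puts reads on one library size through edgeR's TMM factors, and 1 CPM stood for 5.37 to 7.55 reads. The labelled cell type was checked with 5 myeloid miRNAs, among them miR-142a-5p and miR-223-3p. All 5 were detected in every library, with summed levels of 70146 to 76110 CPM in oxLDL and 66180 to 78586 CPM in control. Most of that sum was miR-142a-5p, and single markers varied more, as miR-223-3p did at 61.1, 161 and 105 CPM in oxLDL and 77.3, 67.8 and 75.5 CPM in control. Control replicate 2 stood apart from the other controls by more reads of muscle, blood and liver marker miRNAs. The labels do not say whether libraries came from separate cultures, so each p-value speaks of the variation among these 6 samples, and that may be technical only.

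The endothelial miR-126a-3p was 2.13 times lower in oxLDL, and it was called, as 1 of the 3 members with enough reads to be tested. The oxLDL libraries held 1439, 1100 and 616 reads of it, or 268, 181 and 104 CPM. The control libraries held 2016, 3611 and 3106 reads, or 276, 478 and 424 CPM. Every oxLDL library lay under every control library, but only just, since oxLDL replicate 1 and control replicate 1 were nearly level. The means were 184 ± 82.3 CPM in oxLDL and 393 ± 105 CPM in control (SD, n = 3 each). The log2 fold change was -1.09 (SE 0.346, 95% interval -1.89 to -0.29, edgeR's quasi-likelihood test, Benjamini-Hochberg adjusted p over 475 tested entries = 0.0333). Being close to the threshold of 0.05, the call was lost without oxLDL replicate 2 (adjusted p = 0.0919), control replicate 2 (0.0737) or control replicate 3 (0.0600), while the log2 fold change stayed between -1.51 and -0.81 over all 6 libraries left out in turn. Centring on the median entry, a setting chosen after seeing the data, gave -0.96 and an adjusted p = 0.0509 in edgeR's test. In bulk samples, fewer cells that carry a miRNA and less of it per cell cannot be told apart.

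**Figure D1:**
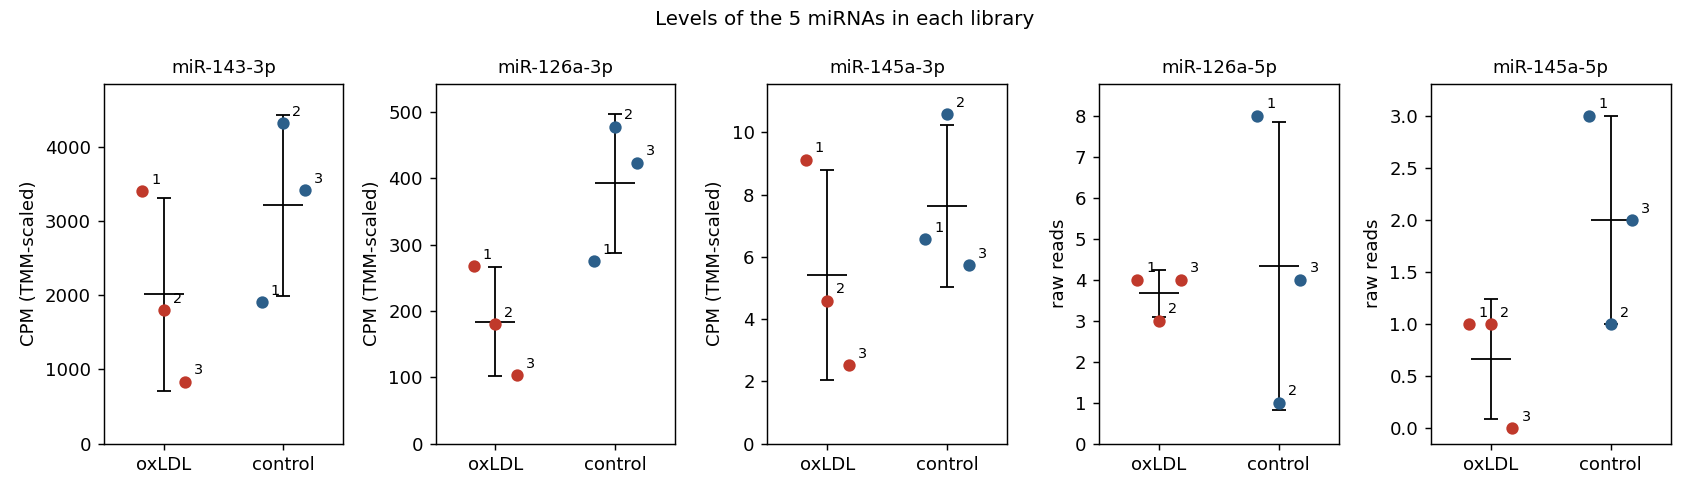
Level of each of the 5 miRNAs in every library, as TMM-scaled CPM for the 3 with enough reads to be tested and as raw reads for the others; points are libraries with their replicate number, bars are mean ± SD of n = 3. Groups overlapped for 4 of the 5, and for miR-126a-3p the highest oxLDL library (268 CPM) lay just under the lowest control library (276 CPM).

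The other arm of that hairpin, miR-126a-5p, a passenger strand in many tissues that has functions of its own in endothelium, was barely read. It had 4, 3 and 4 reads in oxLDL and 8, 1 and 4 in control, too few to pass the filter on low counts. Pooled over libraries, 11 reads in oxLDL against 13 in control gave an oxLDL to control ratio of 1.08 after scaling (95% interval 0.437 to 2.61, exact Clopper-Pearson on the split of reads, counting error only). The interval leaves a change as large as that of miR-126a-3p within reach, so whether the arms differ was not detectable at this depth. On the log2 scale, 5p over 3p reads (0.5 added to each) were -8.32, -8.30 and -7.10 in oxLDL and -7.89, -11.23 and -9.43 in control, and the groups overlapped. With so few 5p reads the hairpin missed the minimum of 10 reads in each arm. Under a minimum of 50 reads over both arms the mean log2 ratio was 1.61 higher in oxLDL, and limma over 154 hairpins did not call it (adjusted p = 0.228). That difference was 0.76 without control replicate 2, which held 1 read of the 5p arm, and up to 2.43 with another library left out.

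The most abundant member was miR-143-3p, the main arm of the smooth muscle cluster. In GRCm38 the hairpins Mir143 (chr18:61649196-61649258) and Mir145a (chr18:61647825-61647894) stand 1301 bases apart on the minus strand, and no longer transcript of the annotation spans them on that strand. It had 18262, 10929 and 4965 reads in oxLDL, or 3402, 1795 and 834 CPM. Its reads in control were 13911, 32610 and 25050, or 1903, 4317 and 3419 CPM. The groups overlapped, with oxLDL replicate 1 above control replicate 1 and level with control replicate 3. By rank it stood at 50, 65 and 84 of 1109 entries in oxLDL and at 62, 43 and 47 in control. Means were 2010.2 ± 1297 CPM in oxLDL and 3213 ± 1220 CPM in control (SD, n = 3 each). The log2 fold change of -0.68 (SE 0.483, 95% interval -1.79 to 0.44) did not pass edgeR's test (adjusted p = 0.279). Single libraries moved this value: it was -1.34 without oxLDL replicate 1, which did pass (edgeR adjusted p = 0.0422), -0.30 without oxLDL replicate 3 and -0.46 without control replicate 2 (adjusted p = 0.518 and 0.501). Fitted without the low-count filter, edgeR called it at nearly the same size (log2 fold change -0.67, adjusted p = 8.87e-05). That call came from a smaller SE, 0.150 against 0.483, and not from a larger fall, while the groups overlap as before. DESeq2 and limma-voom, with the filter, did not call it (adjusted p = 0.391 and 0.193).

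Of its cluster mate, miR-145a, the 3p arm was read more than the 5p arm, although the 5p arm is the one usually named as the regulator of smooth muscle state. For miR-145a-3p the oxLDL libraries gave 49, 28 and 15 reads, or 9.13, 4.60 and 2.52 CPM. The control libraries gave 48, 80 and 42 reads, or 6.57, 10.6 and 5.73 CPM. Here too oxLDL replicate 1 lay inside the control range, and the log2 fold change of -0.51 (SE 0.447, 95% interval -1.54 to 0.53) did not pass edgeR's test (adjusted p = 0.374). Without oxLDL replicate 1 it was -1.13 (edgeR adjusted p = 0.0556), without oxLDL replicate 3 -0.16 and without control replicate 2 -0.23. For miR-145a-5p there were 1, 1 and 0 reads in oxLDL and 3, 1 and 2 in control. That came to 2 reads against 6, a scaled oxLDL to control ratio of 0.425 with an exact Clopper-Pearson 95% interval of 0.0419 to 2.38, so neither a fall nor a rise was detectable. In oxLDL replicate 3, its 0 reads allow a level of up to 0.504 CPM (3 reads, counting error only). Adaptor ligation favours some RNA ends, so the order of arms is an order of reads, not of molecules.

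The other arm of Mir143, miR-143-5p, had 8, 3 and 2 reads in oxLDL and 10, 15 and 9 in control. Reads of the minor arm made up 0.0444% of the Mir143 hairpin, 0.201% of Mir126a and 2.96% of Mir145a, summed over all libraries (exact Clopper-Pearson 95% intervals 0.0327% to 0.0591%, 0.129% to 0.300% and 1.29% to 5.75%). These intervals cover counting error only, not the spread between libraries. For Mir126a, 3p reads per 5p read ran from 154 in oxLDL replicate 3 to 3611 in control replicate 2. The median over the 154 hairpins with a mean of at least 50 reads was 2.96%, and only 3 of them had a lower minor share than Mir143 and 14 a lower one than Mir126a. Mir145a, with a mean of 45.0 reads, was not among the 154.

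Read as a set, 3 of the 5 members had enough reads to be tested and 1 of these 3 was called, lower in oxLDL. Of all tested entries 45.7% were called, 24% being lower in oxLDL and 21.7% higher, so 1 call in 3 does not set the members apart. No overlap between groups was seen for 1 of the 3 tested members, against 59.2% of tested entries. Over all tested entries the median log2 fold change was -0.13, and all 3 tested members lay below it. The split of calls over all entries depended on the scaling, with 103 higher and 114 lower as reported, 82 and 158 with library totals alone, and 133 and 92 after centring on the median. Within both groups the order of levels was miR-143-3p, miR-126a-3p, miR-145a-3p, then miR-126a-5p and miR-145a-5p. The first 3 were separated in every library, whereas the last pair overlapped in control (0.132 to 1.09 and 0.132 to 0.410 CPM).

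Spread within a group was the common trait of the 3 tested members. Across the oxLDL libraries the highest level was 4.08 times the lowest for miR-143-3p, 3.62 times for miR-145a-3p and 2.59 times for miR-126a-3p. In control these ratios were 2.27, 1.85 and 1.73. As SD of log2 CPM, miR-143-3p varied by 1.01 in oxLDL and 0.61 in control, miR-145a-3p by 0.87 and 0.45, and miR-126a-3p by 0.69 and 0.42. The median of this SD over the 299 entries averaging 10 CPM or more was 0.17 in each group. Among those 299 only 5 were more variable than miR-143-3p in oxLDL and 15 in control, and for miR-126a-3p these numbers were 12 and 33. miR-145a-3p, with under 10 CPM, was not among the 299, and its few reads add counting error to its SD. Of all 475 tested entries, 17 were more variable than miR-145a-3p in oxLDL and 72 in control.

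**Figure D2:**
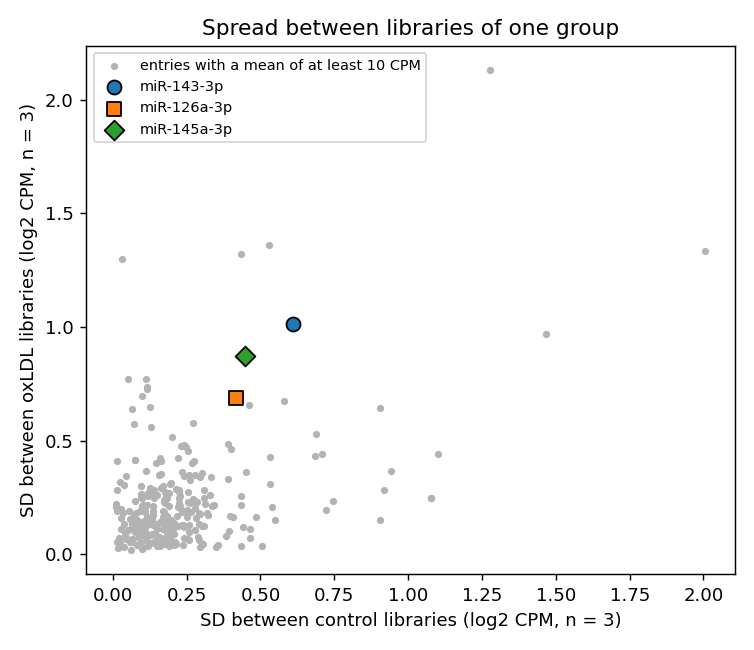
Each grey point is an entry with a mean of at least 10 CPM, placed by the SD of its log2 CPM between the 3 control libraries (x axis) and between the 3 oxLDL libraries (y axis); coloured symbols are the tested members. All 3 members lie above and to the right of most grey points, whose median SD is 0.17 on both axes. miR-145a-3p, with under 10 CPM, is not of the grey set.

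The 3 tested members shared part of their order over libraries. In oxLDL, replicate 1 was highest and replicate 3 lowest for miR-143-3p, miR-145a-3p and miR-126a-3p alike, and in control replicate 2 was highest for all 3. They parted in the other controls, since replicate 3 was lowest for miR-145a-3p while replicate 1 was lowest for miR-143-3p and miR-126a-3p. The shared order is not particular to the members. The muscle marker miR-133a-3p had it too, at 226, 124 and 58.8 CPM in oxLDL and 85.1, 449 and 70.4 CPM in control. How many of all tested entries have this order was not counted. The scarce arms miR-126a-5p and miR-145a-5p had 1 read each in control replicate 2, their lowest in that group. Over the 6 libraries miR-143-3p spanned 5.17 times and miR-126a-3p 4.62 times. The number of miR-143-3p reads per miR-126a-3p read spanned only 1.84 times, at 12.7, 9.94 and 8.06 in oxLDL and 6.90, 9.03 and 8.07 in control. The log2 ratio of miR-126a-3p over miR-143-3p was 0.34 lower in oxLDL, and an exact two-sided permutation test gave p = 0.3 (adjusted p = 0.9 over 3 ratios, where 3 libraries against 3 cannot go below 0.1). The log2 fold changes of miR-126a-3p and miR-143-3p were thus not shown to differ. For the cluster mates, miR-143-3p reads per miR-145a-3p read were 373, 390 and 331 in oxLDL and 290, 408 and 596 in control. Their log2 ratio, miR-145a-3p over miR-143-3p, was 0.20 higher in oxLDL (exact permutation p = 0.7, adjusted p = 1). The ratio with miR-145a-5p differed by -0.0083 and rests on 0 to 3 reads of that arm (exact permutation p = 1).

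Likeness of pattern was measured as Pearson's r of log2 CPM over the 6 libraries, against the 298 other entries averaging 10 CPM or more. The libraries share their group and depth, so r is a description. For miR-143-3p the closest were miR-20a-5p (r = 0.95), miR-126a-3p (r = 0.94) and miR-18a-5p (r = 0.93). The first and the last of these come from the proliferation-linked miR-17-92 cluster. Both were steady, with a highest level 1.29 and 1.35 times the lowest. The likeness is therefore one of pattern and not of size, and the order was only partly shared. miR-20a-5p was highest in oxLDL replicate 1 (3306 CPM), whereas miR-143-3p was highest in control replicate 2 (4317 CPM). For miR-126a-3p the closest were miR-10b-5p (r = 0.99), miR-18a-5p (r = 0.98) and miR-148a-3p (r = 0.97), and miR-143-3p came in place 7. miR-10b-5p, a Hox-cluster miRNA that is rich in mesenchymal and endothelial cells, spanned 13.2 times and had 5072, 2988 and 920 reads in oxLDL and 8512, 14069 and 14956 in control. Its log2 fold change was -1.67 (edgeR adjusted p = 0.0396), lower in oxLDL, a call that ended without oxLDL replicate 2, without any 1 control library (adjusted p up to 0.116) and with median centring (adjusted p = 0.0515). miR-148a-3p, which represses the LDL receptor, spanned 7.76 times and had 2759, 1840 and 1203 reads in oxLDL and 6573, 11850 and 8433 in control (log2 fold change -1.83, edgeR adjusted p = 0.00384). miR-145a-3p, with under 10 CPM, was not placed in this comparison.

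**Figure D3:**
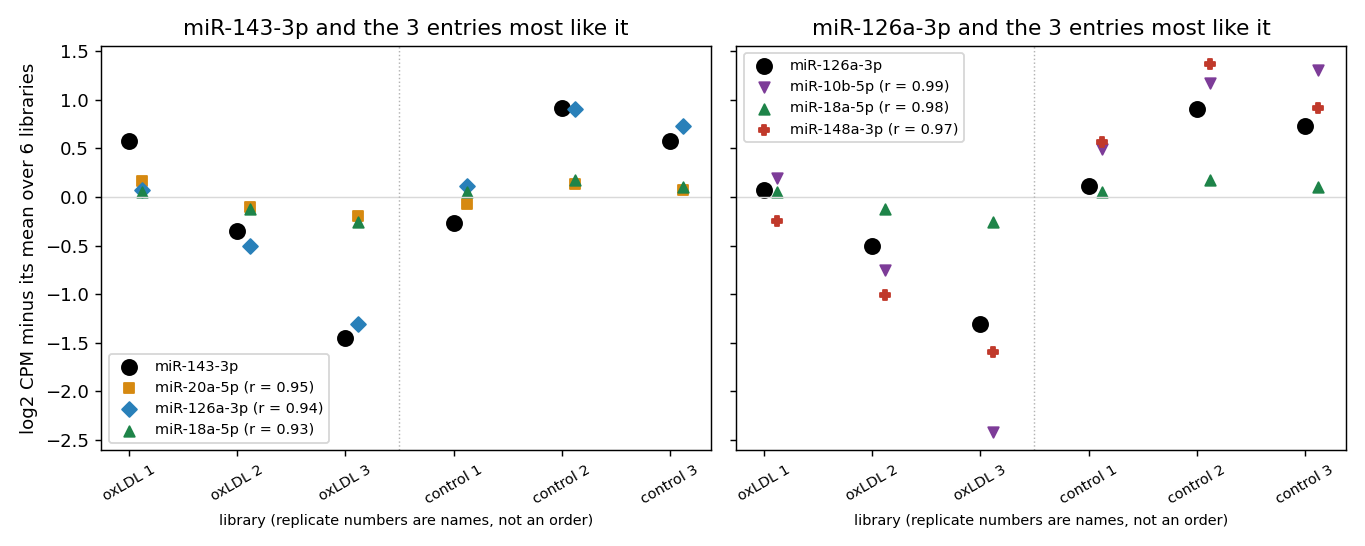
Log2 CPM minus its mean over the 6 libraries (y axis) in each library (x axis) for miR-143-3p, left, and miR-126a-3p, right, each with the 3 entries most like it. miR-126a-3p, miR-10b-5p and miR-148a-3p are high or low in the same libraries, with oxLDL replicate 3 the lowest for all 3. miR-20a-5p and miR-18a-5p vary over a narrow range and share the order only in part, miR-20a-5p being highest in oxLDL replicate 1.

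Other cell types of blood, muscle and stroma have their own marker miRNAs, and they shared the members' pattern in part. The skeletal and heart muscle list (all but miR-208a-3p of 6 in the table, 4 tested, none called) summed to 245, 135 and 65.4 CPM in oxLDL and 94.8, 497 and 81.9 CPM in control. Its libraries followed the order of the tested members within oxLDL, and control replicate 2 was highest, as for all of them. Control replicate 3 was lowest, as for miR-145a-3p, whereas for miR-143-3p and miR-126a-3p that library lay above control replicate 1. Most of the sum was miR-133a-3p, with 1214, 757 and 350 reads in oxLDL and 622, 3394 and 516 in control, while miR-206-3p had 1 to 5 and 5 to 37 reads. The erythroid and serum list (5 tested, miR-451a lower, against 24% called lower of all tested entries) summed to 78.6, 44.0 and 46.2 CPM in oxLDL and 84.3, 282 and 93.6 CPM in control. The hepatocyte list (2 in the table, 1 tested, not called) summed to 2.42, 1.97 and 12.3 CPM in oxLDL and 19.0, 87.5 and 5.19 CPM in control. Control replicate 2 was at the top of both, but the hepatocyte sum was highest of oxLDL in replicate 3, where the tested members were lowest. The fall of miR-451a (edgeR adjusted p = 0.0341) was no longer called with any of control replicate 2, oxLDL replicate 2 and oxLDL replicate 3 left out (largest adjusted p = 0.110). The part of these marker miRNAs in the members' results was not tested. Another setting chosen after seeing the data left out both control replicate 2 and oxLDL replicate 3. For all 3 tested members these were the highest control and the lowest oxLDL library, so each log2 fold change had to move up. It was -0.64 for miR-126a-3p (edgeR adjusted p = 0.115), -0.035 for miR-143-3p (adjusted p = 0.947) and 0.15 for miR-145a-3p (adjusted p = 0.770). The setting therefore does not show what the marker miRNAs contribute.

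Fibroblasts and other stromal cells lie next to smooth muscle in the vessel wall, and their list, the miR-199 and miR-214 arms, was split. Its sum was 2038 to 2278 CPM in oxLDL and 1935 to 2210 CPM in control, nearly all of it miR-199a-3p and miR-199a-5p, which were not called. The other 3 of its 5 members, miR-199b-5p and both miR-214 arms, were lower in oxLDL, though miR-214-5p was not called with control replicate 2 and oxLDL replicate 3 both left out (edgeR adjusted p = 0.0753). Of all tested entries 24% were called lower and 21.7% higher, shares to set beside this list and the epithelial one. Both lists were drawn up with earlier results of these data known. miR-214-3p had 17, 15 and 7 reads in oxLDL and 92, 92 and 88 in control, 5.41 times lower (edgeR adjusted p = 0.000505). miR-199b-5p had 186, 135 and 35 reads in oxLDL and 526, 556 and 517 in control, 3.45 times lower (edgeR adjusted p = 0.0218; not past the threshold without oxLDL replicate 2 at 0.0665 or control replicate 1 at 0.0594). Both share the tested members' order within oxLDL but not their spread in control. Epithelial markers (7 tested, miR-200b-3p and miR-200c-3p higher, miR-203-3p and miR-205-5p lower) summed to 124 to 144 CPM in oxLDL and 96.9 to 129 CPM in control. The call of miR-200b-3p was lost in 5 of 15 other settings, with the replicate block, without oxLDL replicate 2, oxLDL replicate 3 or control replicate 3, and with control replicate 2 and oxLDL replicate 3 both left out (edgeR adjusted p up to 0.0914), and that of miR-200c-3p without oxLDL replicate 2 (0.0522). Neural markers (4 of 5 in the table, 2 tested, none called) summed to 20.4 to 51.6 and 22.4 to 55.4 CPM.

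**Figure D4:**
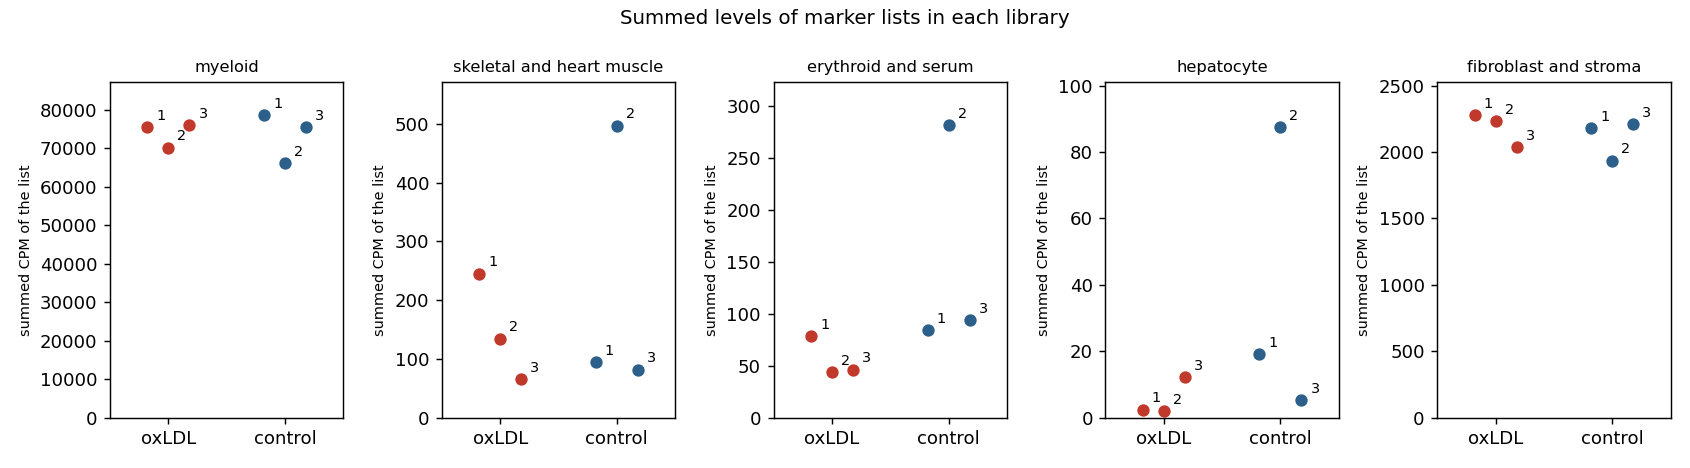
Summed CPM of 5 lists of cell type markers (y axis from 0) in each library, with replicate numbers beside the points. The myeloid sum, carried by miR-142a-5p, spans 66180 to 78586 CPM, whereas the muscle, erythroid and hepatocyte lists peak in control replicate 2 (497, 282 and 87.5 CPM).

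Other miRNAs with known roles in the vessel wall went both ways. On the smooth muscle side 11 of 12 listed miRNAs were in the table and 10 were tested. Of these 2 rose and 3 fell, a share near the 45.7% called over all tested entries, with a median log2 fold change of -0.091 against -0.13 over all of them. Among them miR-26a-5p rose 2.18 times and miR-29b-3p, which represses collagen and elastin messages, 1.85 times. miR-222-3p, which promotes smooth muscle growth, fell 2.52 times. miR-221-3p fell 1.25 times, which 11 of 15 other settings did not call (edgeR and DESeq2 adjusted p up to 0.170). miR-204-5p fell 5.04 times, at 6, 4 and 4 reads in oxLDL and 21, 40 and 31 in control (edgeR adjusted p = 0.00185). On the endothelial side 11 of 12 were in the table, 9 were tested and all 9 were called, 5 higher and 4 lower, with a median log2 fold change of 0.39. Over all tested entries 45.7% were called (21.7% higher, 24% lower), and the list was drawn up with earlier results of these data known. miR-10a-5p, which restrains NF-kB signalling in endothelium, rose 1.61 times, to 47229 ± 1274 CPM in oxLDL against 29371 ± 3229 CPM in control (SD, n = 3 each; edgeR adjusted p = 0.00125), whereas its Hox-cluster relative miR-10b-5p was lower. miR-210-3p rose 3.20 times, and miR-92a-3p, which limits vessel growth, fell 2.97 times. The other rises were those of miR-146a-5p, miR-23b-3p and miR-27b-3p, and the other falls those of miR-181b-5p and miR-17-5p. The call of miR-27b-3p was lost in 5 of 15 other settings, with library totals, with oxLDL replicate 2, oxLDL replicate 3 or control replicate 2 left out, and with control replicate 2 and oxLDL replicate 3 both left out (edgeR adjusted p up to 0.0983). That of miR-23b-3p was lost with library totals (0.0624) and without control replicate 1 (0.0509), and that of miR-17-5p with median centring (0.0524) and with those libraries both left out (0.0646). miR-31-5p had 3, 4 and 11 reads in oxLDL and 77, 83 and 12 in control, with groups that overlap in CPM, and its call (log2 fold change -2.88, edgeR adjusted p = 0.0179) ended without oxLDL replicate 1 or 2 or control replicate 1 (adjusted p up to 0.0665) and with limma-voom (0.0867).

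**Figure D5:**
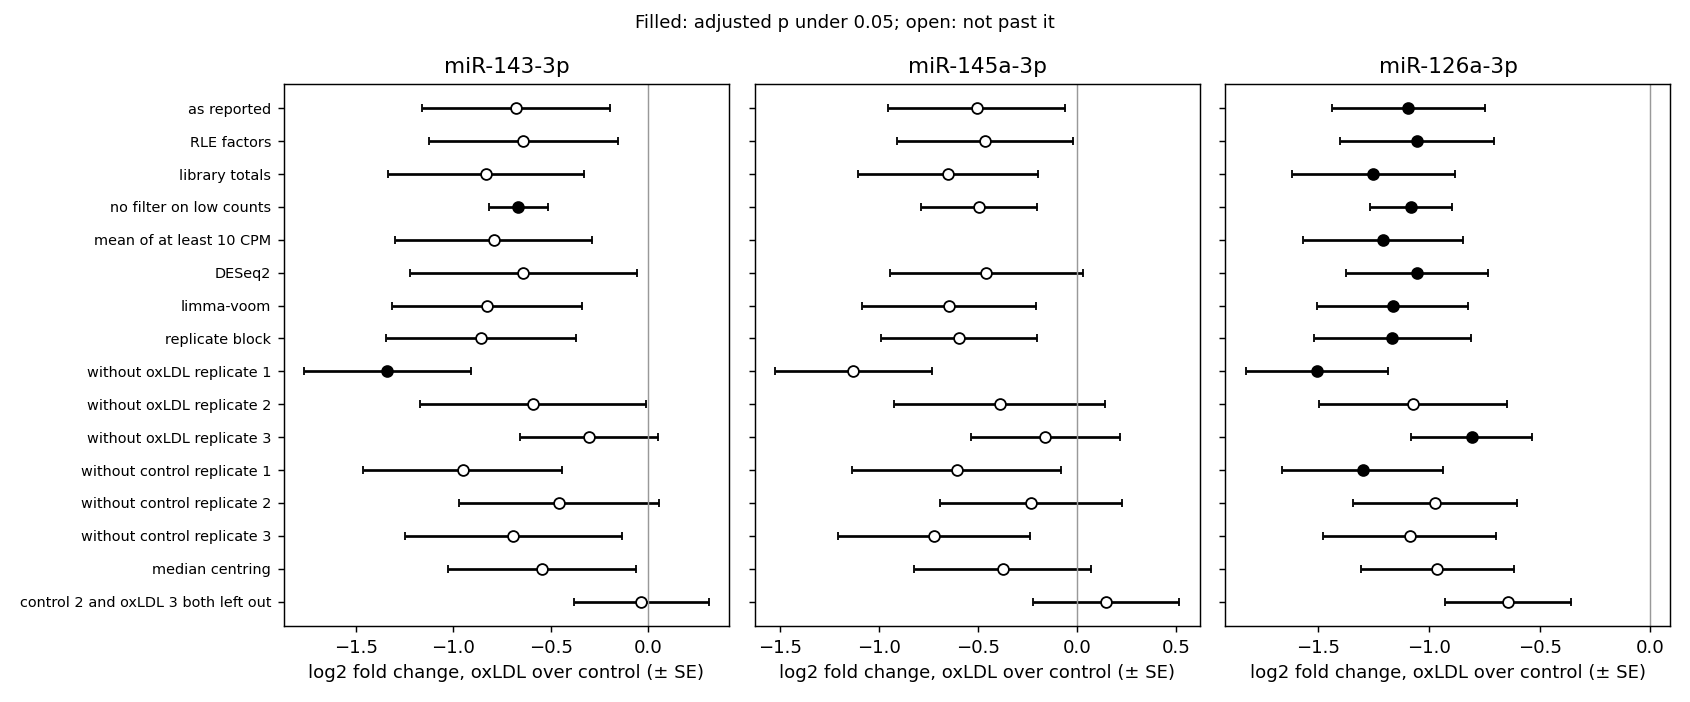
Log2 fold change, oxLDL over control, with its SE (x axis) for the 3 tested members under each setting (rows); filled circles passed an adjusted p of 0.05. miR-126a-3p lies below 0 in every row and is filled in most, miR-143-3p moves between -1.34 and -0.035, and miR-145a-3p reaches 0.15 in the last row.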

How the data were processed

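RNA was taken up in Trizol, and its gel-purified small fraction was ligated to adaptors, amplified and sequenced on an Illumina HiSeq, per the labels' protocols. The authors deposited estimated counts of reads per mature miRNA, not scaled, for 6 libraries. Per the submitters' processing notes the genome was GRCm38.p5, and the aligner, counter and miRNA database are not given in the sources used here. Reads of the 5 members were whole numbers, while 117 values of the table were not (tolerance 1e-06). Clopper-Pearson intervals cover counting error only. Amplified reads carry no molecular identifier and are not independent, so these intervals may be too narrow. The intervals of log2 fold changes come from edgeR's SE, which includes the spread between libraries.

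Each column was tied to its sample through the group and number in its name. Rounded counts were tested with edgeR 4.0.16 (R 4.3.3), quasi-likelihood, TMM factors, filter by group, Benjamini-Hochberg adjustment over all tested entries and a threshold of 0.05. The step was tested on simulated data. Arm ratios used limma 3.58.1 and other ratios exact permutation tests, with 0.5 reads added. Any 2 libraries differed by more than sampling noise (lowest chi-square over degrees of freedom 111). Positions are from GENCODE on GRCm38. The members and lists were chosen with earlier results of these data known. Besides the members and their hairpins, the text names the 3 entries most like each member with at least 10 CPM, up to 4 of each list by p or level and, chosen after their values were seen, the other called entries of the lists. Alternatives, DESeq2 1.42.0 among them, are described at the end.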

Additional observations from a re-analysis of the deposited data

How the results depend on the processing

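The fall of miR-126a-3p kept its direction in every setting run. It passed with RLE factors, library totals, no filter, a minimum of 10 CPM, DESeq2, limma-voom and the replicate block (log2 fold change -1.17, edgeR adjusted p = 0.0349). The fit with no filter gave nearly the same size (-1.08) but a smaller SE, 0.187 against 0.346 as reported. miR-126a-3p did not pass with median centring (-0.96) or with control replicate 2 and oxLDL replicate 3 both left out (-0.64). Those were its highest control and lowest oxLDL library, so leaving them out had to shrink the fall. Leaving out 1 library gave -1.51 to -0.81. miR-143-3p passed with no filter (-0.67), where its SE was 0.150 against 0.483 as reported. It ranged from -1.34 to -0.30 with 1 library left out, and miR-145a-3p turned to 0.15 with both libraries left out. Values of members under the filter come from a fit with none: miR-126a-5p was at 0.11, at -0.035 with library totals and between -0.30 and 0.94 with 1 library left out, and miR-145a-5p was at -1.10. The ratio of miR-145a-5p over miR-143-3p, -0.0083, was 0.59 with 2 reads added and -0.60 to 0.62 with 1 library left out, and that of miR-145a-3p over miR-143-3p, 0.20, was -0.065 to 0.45. The log2 fold change of miR-20a-5p, -0.082, was 0.049 with median centring and 0.042 with both libraries left out. In these cases the cause was not tested.

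Calls over all entries numbered 217, 178 with the replicate block and 161 to 211 with 1 library left out. The labels share only replicate numbers, and deviations of same-numbered libraries correlated at -0.30, -0.23 and -0.12. These values gave no sign of pairing by number, but so few libraries cannot exclude it. No library of a group correlated best with its own number in the other. Depth limited miR-145a-5p and miR-126a-5p, with 0 to 3 and 1 to 8 reads.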
